A study of Mus musculus with 40 samples.

Results

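Collagens were followed gene by gene through mouse melanoma cells in which the circadian clock factor Bmal1 was deleted, or in which a wild-type or DNA-binding-deficient form of it was introduced. Ensembl identifiers of the count table were mapped to mouse symbols, and every protein-coding gene with a collagen chain symbol (Col, a number, a, a number) was taken, which gave 44 of the 51789 genes in the table. The rule used no measured value. Of the 44 genes, 2 (Col6a6 and Col10a1) had no count in any of the 40 libraries and 13 never reached 10 counts in a library, which left 31 genes with at least 10 counts in 1 library or more.

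The 40 libraries fell into 20 groups of 2, and the study describes its duplicates as biological replicates. B16-F10, a mouse melanoma line, was sequenced as a control clone and as a Bmal1 knockout clone. YUMM2.1, a line from a mouse tumour whose alleles include Braf V600E, Cdkn2a+/- and Bcat-STA/+ (a stabilised beta-catenin), carried an empty vector (EV), wild-type Bmal1 (WT-Bmal1) or dHLH-Bmal1, a Bmal1 that lacks the basic helix-loop-helix and so does not bind DNA. The same 3 constructs were put into aC3, 1 CRISPR-made Bmal1-null clone of YUMM2.1, and into YUMM1.7, a line whose alleles include Braf V600E and Cdkn2a-/-. All constructs were lentiviral with GFP and the cells were sorted for it, and the YUMM2.1 and aC3 cells also held a luciferase reporter driven by the Bmal1 promoter. In a further 9 groups, each of the 3 YUMM2.1 construct lines also carried a control hairpin (shNC) or 1 of 2 hairpins against Myh9, the heavy chain of non-muscle myosin IIA (shMyh9#2 and shMyh9#4), with puromycin selection. aC3 is a single clone, so its differences from YUMM2.1 cannot be told apart from differences between clones. The B16-F10 control and knockout cells are also 1 clone each, so the same holds for their differences.

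Collagens are proteins of the extracellular matrix built from 3 chains wound into a triple helix. Fibrillar collagens such as types I, III and V make the cable-like fibrils of connective tissue, type IV makes the sheet of the basement membrane, type VI makes beaded filaments at the cell surface, and fibril-associated collagens sit on the outside of fibrils. Chains are hydroxylated and folded in the endoplasmic reticulum, trimmed after secretion and cross-linked by lysyl oxidases, and cells bind the finished fibres through integrins and discoidin domain receptors. In skin, fibroblasts are the main source of fibrillar collagen, and melanoma cells that have moved from a melanocytic to a mesenchymal-like state are known to make matrix of their own. By class the 44 genes were 11 fibrillar, 9 fibril-associated, 6 basement membrane, 6 beaded filament, 4 transmembrane, 3 short-chain network, 2 multiplexin and 1 anchoring fibril genes, with 2 others.

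Libraries held 3643332 to 22970049 counts, with a median of 10021164.5. Values are CPM, the counts of a gene scaled to a common library total, and since 1 read was made per 3′ end the CPM of different genes do not grow with transcript length and were not divided by it. With 2 libraries against 2, a two-sided permutation test of a single value cannot go below p = 0.333, so calls rest on a model across all genes, edgeR's quasi-likelihood test with a Benjamini-Hochberg adjusted p under 0.05. Errors after ± beside log2 fold changes are standard errors worked out from the fold change and its test statistic. Each group held 2 libraries, and the estimate of spread was shared by all groups of a fit. The 2 YUMM2.1 libraries labelled EV replicate 2 and WT-Bmal1 replicate 1 are in doubt. In the study's table of normalised counts the 2 carry each other's construct name, and by expression EV replicate 1 was nearest to WT-Bmal1 replicate 1 (root mean square log2 distance 0.433) and EV replicate 2 to WT-Bmal1 replicate 2 (0.508). Sox9, a transcription factor of the neural crest, was at 18.4 CPM in EV replicate 1 and 19.6 in WT-Bmal1 replicate 1. It was at 87.5 in EV replicate 2 and 85.6 in WT-Bmal1 replicate 2, so it pairs the libraries in the same way. In dHLH-Bmal1 replicates 1 and 2 Sox9 was at 209 and 267 CPM. In the cells with shNC it was at 117 and 115 CPM with EV and 318 and 369 with WT-Bmal1. A batch shared by libraries of the same replicate number could also pair the EV and WT-Bmal1 libraries so. Whether the labels were exchanged or such a batch was present was not tested. The deposited labels are kept below, and each comparison that uses either library is also given with the 2 labels exchanged and with both left out. Counts of Arntl, the gene of Bmal1, were 16 and 14 CPM in YUMM2.1 EV, 13.9 and 18.1 in WT-Bmal1 and 50.9 and 35 in dHLH-Bmal1. In aC3 they were 32.8 and 30.3 CPM in EV, 18.2 and 17.4 in WT-Bmal1 (lower, adjusted p = 0.0036) and 45 and 31.4 in dHLH-Bmal1, and in the shNC cells WT-Bmal1 did not pass against EV (0.27 ± 0.18). Whether 3′ counts of Arntl include the message of the constructs was not tested.

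Cell type markers differed between the lines and moved with the constructs. The 7 melanocytic markers summed to 24600 and 26000 CPM in B16-F10 control cells, 499 to 519 in YUMM2.1 EV and 14.1 to 14.8 in YUMM1.7 EV. In all YUMM groups Mlana and Tyrp1, melanosome proteins, were at 0, and the YUMM2.1 EV sum was mostly Sox10, a neural crest factor. The 6 fibroblast markers summed to 2.09 to 6.71 CPM in YUMM2.1 EV and to 136 to 158 across YUMM1.7 libraries, where Pdgfra (108 and 102 CPM in EV) and Pdgfrb (35.2 and 39.2) led and Thy1 was at 0. Leukocyte markers summed to at most 5.77 CPM and epithelial markers to at most 1.76 CPM in any library. The 3 endothelial markers summed to 3.79 to 26.5 CPM, with Cdh5 at 0 in B16-F10. In such bulk libraries fewer cells of a type and less RNA per cell cannot be told apart.

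The collagen genes made up very different amounts of RNA in the lines. Summed over the 44 genes, B16-F10 control cells held 85.19 and 76.6 CPM, YUMM2.1 EV cells 2147 and 2107, aC3 EV cells 1968 and 2007, and YUMM1.7 EV cells 4604 and 4658. The pairs did not overlap, and aC3 lay close to its parent. Over all 40 libraries the highest mean CPM were those of Col1a2 (328.5, a type I chain), Col3a1 (297.8, type III), Col18a1 (275.5, the basement membrane collagen that holds endostatin), Col8a1 (243.7, a short-chain network collagen) and Col5a2 (199.8, type V). Col5a1 (174.4), Col4a1 (144.8), Col4a2 (84.29), Col16a1 (68.98) and Col6a3 (68.58) followed.

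**Figure D1:**
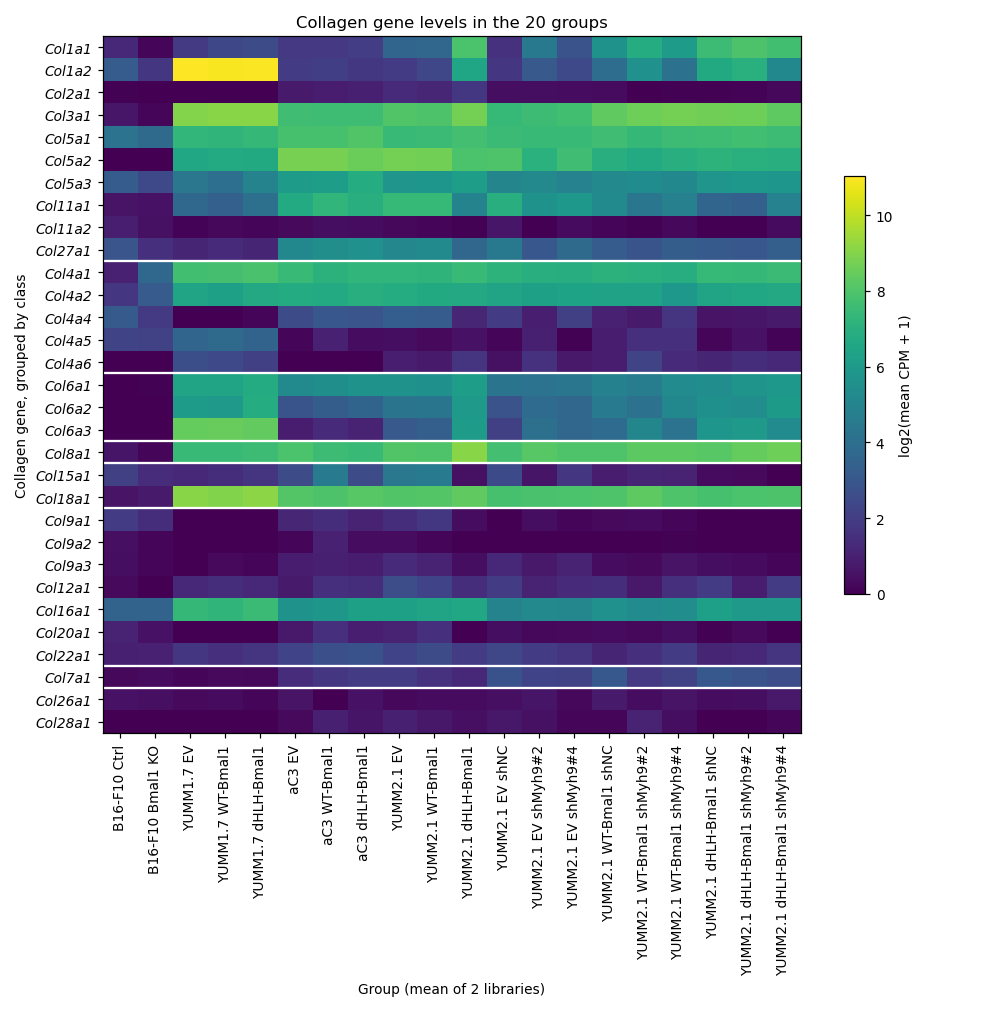
Heatmap of log2(mean CPM + 1) for the 31 collagen genes with at least 10 counts in a library (rows) in the 20 groups (columns, 2 libraries each). The B16-F10 columns are nearly empty, the YUMM1.7 columns are led by Col1a2, and Col1a1 is high where YUMM2.1 cells carry dHLH-Bmal1.

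Each line had its own leading chains. In YUMM2.1 EV, Col5a2, Col3a1, Col8a1, Col18a1 and Col5a1 took 65.4% of the collagen CPM. In YUMM1.7 EV, Col1a2 alone took 45.8%, and with Col18a1, Col3a1, Col6a3 and Col4a1 80.6%. In B16-F10 control cells, Col5a1 (17.69 and 16.76 CPM) and Col16a1 (10.4 and 10.27 CPM) were the 2 genes at 10 CPM or more. At most 16 of the 44 genes reached a mean of 10 CPM in a group. Col5a2 shares its strand and position with the annotated gene Gm38211, which held 12259 counts beside 80051 for Col5a2, so reads of the pair may be split. In all, 28 of the 44 genes overlap another annotated gene. How the counting used strand is not given in the sources used here.

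The 2 chains of type I collagen were not expressed in step. In collagen I, chains of Col1a1 and Col1a2 assemble together. In YUMM1.7 EV, Col1a2 was at 2099 and 2139 CPM and Col1a1 at 2.572 and 2.71 CPM. Across the YUMM1.7 libraries the ratio of Col1a1 to Col1a2 counts was 0.00123 to 0.00259. In YUMM2.1 EV the ratio was 4.06 and 4.03 on low counts of both genes, and in YUMM2.1 dHLH-Bmal1 it was 2.14 and 3.52 with both genes far higher. B16-F10 control cells had a ratio of 0.163 and 0.166. In YUMM1.7 cells Col1a2 messages thus outnumbered Col1a1 messages in every library.

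**Figure D2:**
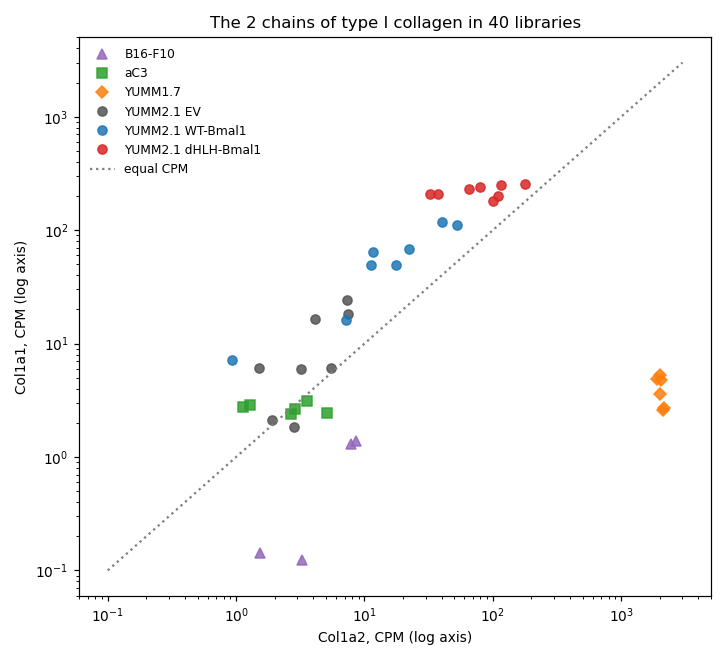
Col1a1 against Col1a2 in CPM, log axes, 1 point per library (40), with a dotted line where both are equal. YUMM1.7 libraries lie at about 2000 CPM of Col1a2 with few Col1a1 counts, and YUMM2.1 libraries with dHLH-Bmal1 lie higher on both axes than those with EV.

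The sequence before the start of Col1a2 and Col3a1, which rose with dHLH-Bmal1 in YUMM2.1, is shown beside that of Col5a1, which did not pass the test there, so that their letters can be compared. Each line gives 250 bases before the RefSeq start on GRCm38.p6, plus strand, at chr6:4505368-4505617, chr1:45311288-45311537 and chr2:27886175-27886424 in that order. Capitals mark a GC box (GGGCGG on either strand) or a TATA box (TATAAA).
Col1a2: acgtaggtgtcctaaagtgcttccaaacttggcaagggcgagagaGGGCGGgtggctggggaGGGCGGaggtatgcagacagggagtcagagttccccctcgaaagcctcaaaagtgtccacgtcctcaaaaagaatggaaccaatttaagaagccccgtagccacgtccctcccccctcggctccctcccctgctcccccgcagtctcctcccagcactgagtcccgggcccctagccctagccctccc
Col3a1: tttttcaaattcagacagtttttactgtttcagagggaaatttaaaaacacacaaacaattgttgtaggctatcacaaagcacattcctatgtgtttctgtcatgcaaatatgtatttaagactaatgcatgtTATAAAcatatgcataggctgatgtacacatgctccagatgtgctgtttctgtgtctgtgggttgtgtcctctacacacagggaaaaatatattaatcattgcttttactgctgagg
Col5a1: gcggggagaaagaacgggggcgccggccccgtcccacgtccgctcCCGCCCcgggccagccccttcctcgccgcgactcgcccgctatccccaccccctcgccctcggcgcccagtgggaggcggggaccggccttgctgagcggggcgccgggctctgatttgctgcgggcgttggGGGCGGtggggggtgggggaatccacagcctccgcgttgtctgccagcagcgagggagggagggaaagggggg
Col3a1 held a TATA box match, with its first base at -117 from the start, and no GC box in these letters. Col1a2 and Col5a1 held GC boxes and no TATA box. Whether the Col3a1 match works as a TATA box was not tested. Of the 44 genes, 35 had a RefSeq promoter, a window of 300 bases from 250 before the start to 50 after it. A GC box stood in 22 of the 35 (62.9%, against 35.7% of all 32851 promoters) and a TATA box in 5 (14.3%, against 13.6%), with both strands searched. A collagen gene counted if any of its promoters matched, while the share of all counts single promoters, so the units differ. The E-box CACGTG, the letters that Bmal1 with its partner Clock is known to bind, stood in 0 of the 35 and in 7.15% of all promoters. TGANTCA, the AP-1 site, stood in 1 (Col6a1) against 7.81%, and a CArG-like match in 1 (Col6a4) against 1.63%. A CArG-like match can hold a TATA box, and a match describes these windows only.

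Several collagen genes are chromosomal neighbours, and their levels were compared without a test because the 20 groups share lines. Col4a1 and Col4a2, the ubiquitous type IV chains, start 21 bases apart on mouse chromosome 8 on opposite strands. Their log2 group means had r = 0.973 over 20 groups and 0.706 over the 12 YUMM2.1 groups without aC3. Col4a4 and Col4a3, type IV chains of specialised basement membranes, start 72 bases apart on chromosome 1, and yet Col4a4 had counts in 35 libraries and Col4a3 7 counts in 1 library. The 71 bases between the 2 starts are shown because a single short stretch lies before both genes, at chr1:82586850-82586920 on the strand of Col4a4, and hold no GC or TATA box.
Col4a4-Col4a3: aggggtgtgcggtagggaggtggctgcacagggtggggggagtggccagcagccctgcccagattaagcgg
Col3a1 and Col5a2 lie tail to tail with 24614 bases between them. They had r = 0.896 over all groups and -0.433 over the 12 YUMM2.1 groups. Col6a2 and Col6a1, type VI chains, had r = 0.922 and 0.847.

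Against YUMM2.1 EV, YUMM1.7 EV differed in most of the collagen genes tested, some of which had no counts in YUMM1.7 EV. Col1a2, the type VI chains and several type IV chains were higher, and Col11a1, Col15a1, Col5a2 and Col5a3 lower. Of 27 genes tested, 10 were higher and 14 lower, in a comparison where 37.1% of all genes passed (17.8% higher and 19.3% lower). Col1a2 (1.502 and 4.11 CPM in YUMM2.1 EV) differed by 9.62 ± 0.28 log2 (adjusted p = 1.1e-08). Col6a3, a type VI chain, was at 5.342 and 9.734 CPM in YUMM2.1 EV and 345.7 and 344.5 in YUMM1.7 EV (5.55 ± 0.26). Col4a5 rose from 0.5842 and 0.1082 CPM to 11 and 11.31. Col11a1, a minor fibrillar chain that sits inside fibrils, was lower, at 157.3 and 181.4 CPM against 13.48 and 10.75 (-3.80 ± 0.14). Col27a1, a cartilage fibrillar chain, was at 39.23 and 27.8 CPM against 0.7983 and 1.682. Col1a1 was lower by -2.08 ± 0.44 (adjusted p = 0.0046), the opposite direction to Col1a2. It was at 6.093 and 16.55 CPM in YUMM2.1 EV and 2.572 and 2.71 in YUMM1.7 EV. YUMM2.1 EV cells with shNC, not in this fit, lay below YUMM1.7 EV, at 1.835 and 2.129 CPM of Col1a1. Of the lower genes, Col4a4, Col2a1, Col9a1, Col9a3 and Col20a1 had no counts in YUMM1.7 EV and passed the filter on low counts through other groups. With 3 counts per library as the floor, Col4a4 was at least 31.4-fold lower. The bounds for Col2a1, Col9a1, Col9a3 and Col20a1 were 5.62, 6.02, 5.59 and 4.09-fold. Gm38211 overlaps Col5a2, which was lower by -2.11 ± 0.21. Sox10 (504 and 485 CPM against 1.51 and 1.12) and the fibroblast markers above moved with these differences, and their part in them was not tested. With the doubted labels exchanged 25 genes passed, with Col4a2 added, and with both libraries left out 24.

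In B16-F10 control cells most collagen genes of the YUMM lines were nearly silent. Of 27 genes tested, 2 were higher than in YUMM2.1 EV and 22 lower, where 54.3% of all genes passed (25% higher and 29.2% lower). The genes tested passed a filter on low counts over B16-F10 control and the YUMM2.1, aC3 and YUMM1.7 EV groups together, so the filter shapes these counts. Col11a2, with 21 and 17 counts in B16-F10 control and 3 and 1 in YUMM2.1 EV, did not pass it. Col5a2 had 0 counts, at least 2900-fold lower than in YUMM2.1 EV and at least 674-fold lower than in YUMM1.7 EV. Col8a1 was at 0.4794 and 0.5814 CPM against 236.6 and 293 (-8.96 ± 0.19), Col3a1 at 0.9588 and 0.1938 CPM against 290.8 and 239.8, and Col4a1 at 1.151 and 0.8721 CPM against 157.2 and 146.9 (-7.25 ± 0.15). The type VI genes Col6a1, Col6a2 and Col6a3 had 1 count each in the 2 libraries together. Col5a1 was less reduced (-3.40 ± 0.12). The 2 higher genes were Col4a5 (4.698 and 2.907 CPM, 3.29 ± 0.53) and Col1a2 (8.533 and 7.897 CPM, 1.59 ± 0.29). The melanocytic markers moved the opposite way with these differences, and their part was not tested. With the doubted labels exchanged or both libraries left out 24 genes passed.

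In the aC3 clone with EV, Col6a3, Col6a2, Col1a1, Col11a1 and 3 others were lower than in YUMM2.1 EV cells without a hairpin. Of 27 tested, 7 were lower and none higher, where 1.75% of all genes passed (0.441% higher and 1.3% lower), and 12 had an unadjusted p under 0.05. The median log2 fold change was -0.58 over the 27 genes and -0.01 over all genes. The 7 were Col6a3 (0.3549 and 1.288 CPM against 5.342 and 9.734, -3.15 ± 0.44), Col12a1 (-2.80), Col1a1 (2.395 and 2.668 CPM against 6.093 and 16.55, -2.13 ± 0.45), Col15a1 (-2.02), Col6a2 (-1.49), Col11a1 (-0.66) and Col16a1 (-0.58). Leaving out either aC3 EV library ended all 7 calls, exchanging the 2 doubted labels gave 11 (2 higher and 9 lower), and leaving both out gave 8 (1 higher and 7 lower, without Col1a1). Col5a1, Col4a1, Col18a1 and Col8a1 were not called. YUMM2.1 EV cells with shNC were not in this fit. Against their values, aC3 EV lay lower for Col6a3 (2.691 and 3.81 CPM with shNC), Col12a1 (1.835 and 3.698) and Col11a1 (121.8 and 116.1). It overlapped for Col6a2 (7.008 and 5.613 CPM against 7.217 and 4.818) and Col15a1 (5.589 and 4.324 against 5.26 and 4.034). It lay higher for Col1a1 (1.835 and 2.129 with shNC) and Col16a1 (53.5 and 47.94 against 31.68 and 27.34).

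In YUMM2.1, dHLH-Bmal1 went with higher levels of some collagen chains and lower levels of others. Both type I chains, Col6a3, Col6a2, Col8a1 and Col3a1 rose, and Col11a1, Col15a1, Col4a4, Col27a1 and Col12a1 fell. Of 26 genes tested, 6 were higher and 5 lower against EV, where 13.2% of all genes passed (6.51% higher and 6.72% lower), and the median log2 fold change was 0.267 over the 26 genes and -0.01 over all genes. Summed collagen CPM went from 2147 and 2107 to 2890 and 2640.

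Among the type I chains, Col1a1 was at 6.093 and 16.55 CPM in EV, 7.149 and 16.26 in WT-Bmal1, and 249.2 and 229 in dHLH-Bmal1. By the deposited labels the EV and WT-Bmal1 libraries overlapped, with the doubted labels exchanged they would not (EV 6.093 and 7.149, WT-Bmal1 16.55 and 16.26) and Col1a1 was then called for WT-Bmal1 against EV. Both dHLH-Bmal1 libraries lay far above all 4 (4.45 ± 0.52 log2 against EV, adjusted p = 0.004). Col1a2 was at 1.502 and 4.11 CPM in EV, 0.9361 and 7.137 in WT-Bmal1 and 116.5 and 65.04 in dHLH-Bmal1 (5.08 ± 0.81, adjusted p = 0.011). The partner chain thus rose with Col1a1 in the same libraries, with more scatter between replicates.

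The type VI chains Col6a3 and Col6a2 rose as well. Col6a3 was at 5.342 and 9.734 CPM in EV, 3.915 and 14.37 in WT-Bmal1 and 80.43 and 49.98 in dHLH-Bmal1 (3.15 ± 0.59, adjusted p = 0.017). Col6a2 was at 13.52 and 22.6 CPM in EV and 65.44 and 57.51 in dHLH-Bmal1 (1.79 ± 0.28). Col6a1, the third chain, was not called (48.82 and 50.51 CPM against 83.16 and 59.39) but was with the replicate number of the deposited labels as a block. The ratio of Col6a1 to Col6a2 counts went from 3.61 and 2.23 to 1.27 and 1.03. Col8a1 (236.6 and 293 CPM against 532.2 and 536.9, 1.03 ± 0.19) and Col3a1 (290.8 and 239.8 CPM against 485 and 366.9, 0.70 ± 0.17, adjusted p = 0.038) rose from high levels.

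Among the genes called, the largest log2 fall was that of Col15a1, a multiplexin of basement membranes. It was at 25.87 and 14.49 CPM in EV, 26.13 and 17.94 in WT-Bmal1 and 0.4714 and 0.3528 in dHLH-Bmal1 (-5.54 ± 0.48, adjusted p = 0.0017). Col11a1 fell from 157.3 and 181.4 CPM to 26.31 and 32.93 (-2.50 ± 0.16, adjusted p = 0.001), and its ratio to Col5a1, a chain of the fibrils it joins, went from 0.972 and 0.928 to 0.137 and 0.136. Col4a4 (-2.72 ± 0.31), Col27a1 (-1.52 ± 0.34) and Col12a1, a fibril-associated collagen (-1.52 ± 0.37), were the other 3 that fell. Col5a2, with 525.9 and 318.2 CPM in EV and 303.1 and 177.8 in dHLH-Bmal1, did not overlap between the groups and was not called (-0.79 ± 0.31, adjusted p = 0.149). The fit with the replicate number as a block called 16 genes, the 11 and also Col5a2, Col20a1, Col6a1, Col5a3 and Col18a1. If the doubted labels were exchanged, that number would follow the construct in the EV and WT-Bmal1 libraries.

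**Figure D3:**
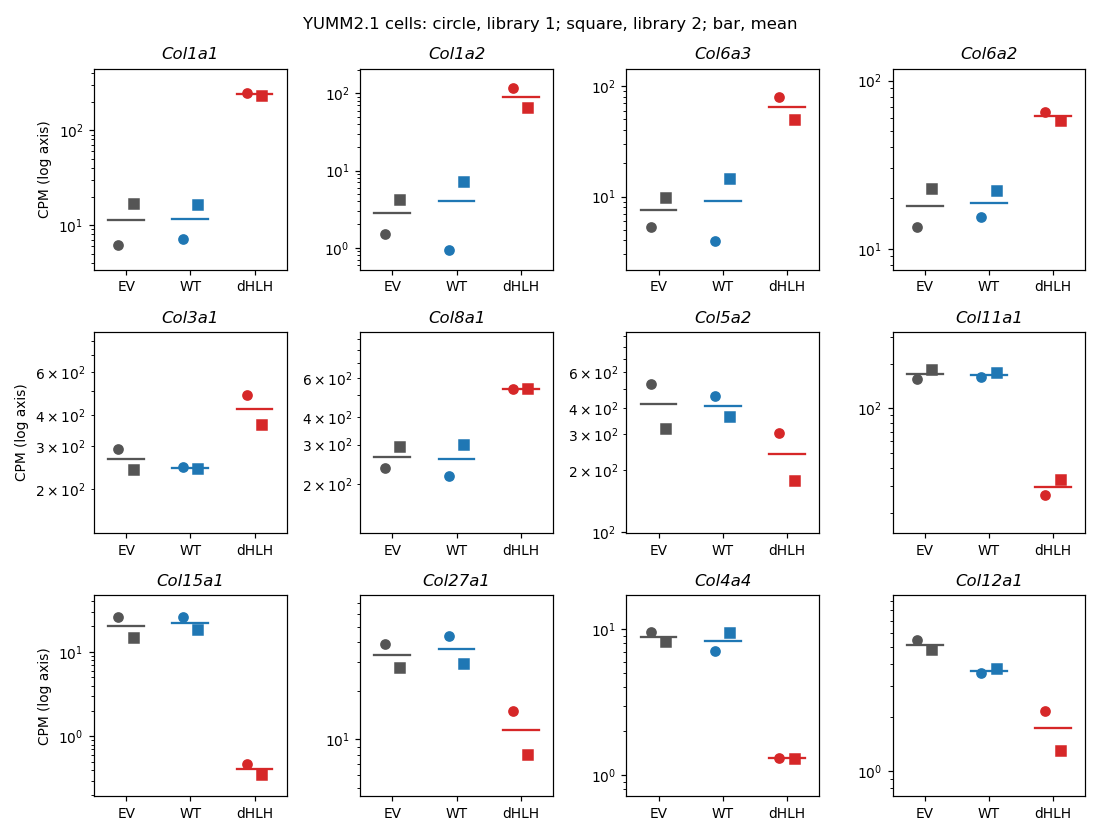
CPM (log axis) of 12 collagen genes in the YUMM2.1 libraries with EV, WT-Bmal1 and dHLH-Bmal1, circles for replicate 1, squares for replicate 2 and bars for the mean of 2. Both dHLH-Bmal1 libraries lie above the other 4 for Col1a1, Col1a2, Col6a3 and Col6a2 and below them for Col11a1 and Col15a1.

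The basement membrane chains Col4a1 and Col4a2 and the fibril core chain Col5a1 did not pass the test with dHLH-Bmal1 (0.23 ± 0.12, -0.13 ± 0.18 and 0.30 ± 0.16 log2). Against WT-Bmal1, 11 of 26 genes passed for dHLH-Bmal1 (6 higher and 5 lower), where 13% of all genes passed (6.44% higher and 6.6% lower), with Col20a1 in place of Col12a1. Col20a1 had no counts with dHLH-Bmal1, at least 5.02-fold lower. This contrast gave 16 calls with the replicate block, 12 with the doubted labels exchanged and 8 with both libraries left out. For WT-Bmal1 against EV 0 of 26 collagen genes and 0% of all genes passed, 0 had an unadjusted p under 0.05, and DESeq2 called 0. With the 2 doubted labels exchanged, dHLH-Bmal1 against EV called 19 collagen genes and WT-Bmal1 against EV called Col1a1 as higher (with both left out it called 0). With both doubted libraries left out, dHLH-Bmal1 against EV called 11, 5 higher and 6 lower, without Col3a1 and Col12a1 and with Col5a2 and Col20a1. Leaving out EV replicate 1 left 6 (Col1a1, Col1a2, Col6a2, Col11a1, Col15a1 and Col4a4), and against WT-Bmal1 leaving out WT-Bmal1 replicate 1 left 5 of these, without Col6a2. Sox10 went from 504 and 485 CPM in EV to 66 and 72.1 in dHLH-Bmal1. Mitf, another melanocytic marker, was at 14.5 and 14.3 CPM in EV and 14.9 and 20.8 in dHLH-Bmal1. The fibroblast marker sum was 2.09 to 6.71 CPM in EV and 9.76 to 18 CPM in dHLH-Bmal1. Whether any of these had a part in the collagen differences was not tested.

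In the YUMM2.1 cells that carried the control hairpin, both constructs went with collagen changes. With WT-Bmal1, 7 of 24 genes were higher and 4 lower against EV, where 22.3% of all genes passed (11.7% higher and 10.6% lower). With dHLH-Bmal1, 9 were higher and 6 lower, where 26.4% passed (13.9% higher and 12.5% lower). These comparisons share the EV libraries, so their values are given side by side. Whether the WT-Bmal1 effect differed from that in the YUMM2.1 cells without a hairpin was not tested.

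Col1a1 was at 1.835 and 2.129 CPM in EV, 48.94 and 49.18 in WT-Bmal1 and 198.4 and 180.6 in dHLH-Bmal1. The 3 constructs did not overlap and were ordered EV, WT-Bmal1, dHLH-Bmal1, with differences from EV of 4.61 ± 0.18 (adjusted p = 1.7e-11) and 6.57 ± 0.17 (adjusted p = 4.1e-14). Col1a2 was at 2.813 and 1.905, 17.45 and 11.22, and 108.9 and 100.9 CPM in that order (2.59 ± 0.45 and 5.48 ± 0.41). Col6a3 was at 2.691 and 3.81, 12 and 14.68, and 59.16 and 51.11 CPM (2.02 ± 0.28 and 4.08 ± 0.27). Col6a2 followed the same order (1.90 ± 0.21 and 2.92 ± 0.21). Col3a1, Col16a1, a fibril-associated collagen, and Col6a1 also rose with both, and Col5a3 and Col8a1 rose with dHLH-Bmal1.

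Col11a1 went the other way, at 121.8 and 116.1 CPM in EV, 34.76 and 38.32 in WT-Bmal1 and 11.51 and 10.55 in dHLH-Bmal1 (-1.71 ± 0.15 and -3.42 ± 0.17). Col5a2, the other type V chain beside Col5a1, was at 276.2 and 238.6, 140 and 110.9, and 144.7 and 135.8 CPM (-1.04 and -0.87). Here Col3a1 exceeded Col5a2 by 2.74 and 2.95 to 1 in counts with dHLH-Bmal1 and stood at 0.664 and 0.649 to 1 in EV. Col27a1 and Col22a1 fell with both constructs, and Col15a1 (-4.66 ± 1.06, adjusted p = 0.0035) and Col4a4 fell with dHLH-Bmal1. Directly against WT-Bmal1, dHLH-Bmal1 had 6 genes higher and 1 lower of 24, where 1.91% of all genes passed (0.828% higher and 1.08% lower). The 6 were Col1a2 (2.89 ± 0.33), Col6a3 (2.06 ± 0.23), Col1a1 (1.96 ± 0.12), Col6a2, Col16a1 and Col6a1, and the lower gene was Col11a1. Without WT-Bmal1 replicate 1 or dHLH-Bmal1 replicate 2, 4 were left (Col1a1, Col1a2, Col6a3 and Col11a1). The melanocytic marker sum was 343 and 349 CPM in EV, 119 and 122 in WT-Bmal1 and 41.2 and 44.3 in dHLH-Bmal1. Most of it was Sox10 (327 and 334, 99 and 100, and 22.7 and 26.1 CPM in that order). Mitf, another marker in the sum, was at 16.1 and 14.6, 21.4 and 18.5, and 18.2 and 18 CPM. The endothelial sum was 7.96 to 10, 21 to 21.5 and 14.5 to 16.6 CPM in the same order. Within it Cdh5 was at 3.55 and 2.13, 13 and 11.8, and 8.05 and 7.95 CPM. Pecam1 was at 6.36 and 5.83, 8.32 and 9.19, and 6.45 and 8.6 CPM. The part of any of these markers in the collagen differences was not tested.

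In the Bmal1-null clone aC3 no collagen gene that passed for dHLH-Bmal1 against EV differed by more than 0.78 log2. In that contrast 5 of 24 genes were higher and 1 lower, where 10.9% of all genes passed (4.79% higher and 6.09% lower). Col5a3, the minor type V chain, was at 72.75 and 57.87 CPM in EV, 69.41 and 75 in WT-Bmal1 and 111.6 and 114.1 in dHLH-Bmal1 (0.78 ± 0.11 against EV, adjusted p = 0.00072). Col6a2 (0.75 ± 0.23), Col16a1 (0.60 ± 0.12), Col27a1 (0.44 ± 0.13) and Col6a1 (0.41 ± 0.11) were the other 4 that rose. Col8a1 fell, from 237.4 and 242.5 CPM to 180.9 and 180.7 (-0.42 ± 0.08). Without EV replicate 2 the 1 call left was Col5a3, and without EV replicate 1 or dHLH-Bmal1 replicate 1 Col5a3, Col16a1 and Col8a1 were left.

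For WT-Bmal1 against EV in aC3, 2 of 24 genes were higher and 2 lower, where 11.2% passed (4.92% higher and 6.28% lower). Col15a1 was at 5.589 and 4.324 CPM in EV, 21.63 and 24.83 in WT-Bmal1 and 5.729 and 4.032 in dHLH-Bmal1. The WT-Bmal1 libraries lay above all others, by 2.21 ± 0.22 against EV (adjusted p = 4.2e-05) and with dHLH-Bmal1 lower than WT-Bmal1 by -2.24 ± 0.23 (adjusted p = 0.00016). Col11a1 was also higher with WT-Bmal1 (0.51 ± 0.09), and Col4a1 (-0.32) and Col8a1 (-0.34) were lower. For dHLH-Bmal1 against WT-Bmal1 1 gene was higher (Col5a3) and 1 lower (Col15a1), where 0.877% of all genes passed (0.435% higher and 0.442% lower). Without EV replicate 1 or WT-Bmal1 replicate 2 only Col15a1 stayed called for WT-Bmal1 against EV, and without either of the other two EV or WT-Bmal1 libraries Col15a1 and Col11a1 did. Without either WT-Bmal1 library Col15a1 was the 1 call left against dHLH-Bmal1. Col1a1 was at 2.395 and 2.668 CPM in EV and 3.107 and 2.865 in dHLH-Bmal1.

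In YUMM1.7 the constructs went with few collagen calls. For dHLH-Bmal1 against EV, 2 of 21 genes were higher and none lower, where 0.63% of all genes passed (0.21% higher and 0.42% lower). Col6a2 was at 72.11 and 65.69 CPM in EV, 63.64 and 58.07 in WT-Bmal1 and 115.6 and 110.7 in dHLH-Bmal1 (0.71 ± 0.08, adjusted p = 0.00014). Col5a3 went from 20.49 and 19.16 CPM to 27.32 and 32.63 (0.60 ± 0.13, adjusted p = 0.0499), a call lost when any of the 4 libraries was left out, with DESeq2 and with the replicate block. DESeq2 called Col6a1 and Col6a2. Col1a2 was at 2099 and 2139 CPM in EV and 2022 and 2037 in dHLH-Bmal1. For WT-Bmal1 against EV 0 of 21 passed, where 0.138% of all genes passed (0.0434% higher and 0.0941% lower), 7 had an unadjusted p under 0.05, and DESeq2 called 1, Col1a2 as lower.

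The difference of the dHLH-Bmal1 effect between lines was tested with an interaction term. Between aC3 and YUMM2.1 it passed for 10 of 27 genes (6 higher and 4 lower in aC3), where 12.2% of all genes passed (7.16% higher and 5% lower). Col1a1 (-4.25 ± 0.70, adjusted p = 0.0024), Col1a2 (-5.29 ± 1.17), Col8a1 and Col3a1 had a lower fold change in aC3. Col11a1 (2.68 ± 0.18, adjusted p = 7.9e-06), Col15a1, Col4a4, Col27a1, Col12a1 and Col20a1 had a higher one, and none of these 6 was called lower in aC3. Between YUMM1.7 and YUMM2.1 it passed for 8 of 27 genes (3 higher and 5 lower in YUMM1.7), where 9.89% of all genes passed (4.42% higher and 5.48% lower). The 8 held Col1a2 (-5.15 ± 0.71), Col1a1 (-3.53 ± 0.69), Col6a3 (-3.19 ± 0.56) and Col11a1 (2.89 ± 0.22). The 8 also count Col4a4, which had 0 counts in YUMM1.7 EV and 1 and 2 with dHLH-Bmal1 and so gives no measured effect in that line. With the doubted labels exchanged 14 and 13 genes passed in the 2 tests, and with both libraries left out 10 and 9. Without aC3 EV replicate 2, 6 of the first 10 were left, and without a YUMM1.7 EV or dHLH-Bmal1 library 4 or 5 of the 8, with Col1a2, Col6a3, Col11a1 and Col15a1 in each. Col6a2, called in all 3 lines, rose less in YUMM1.7 (-1.08 ± 0.29, adjusted p = 0.038).

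**Figure D4:**
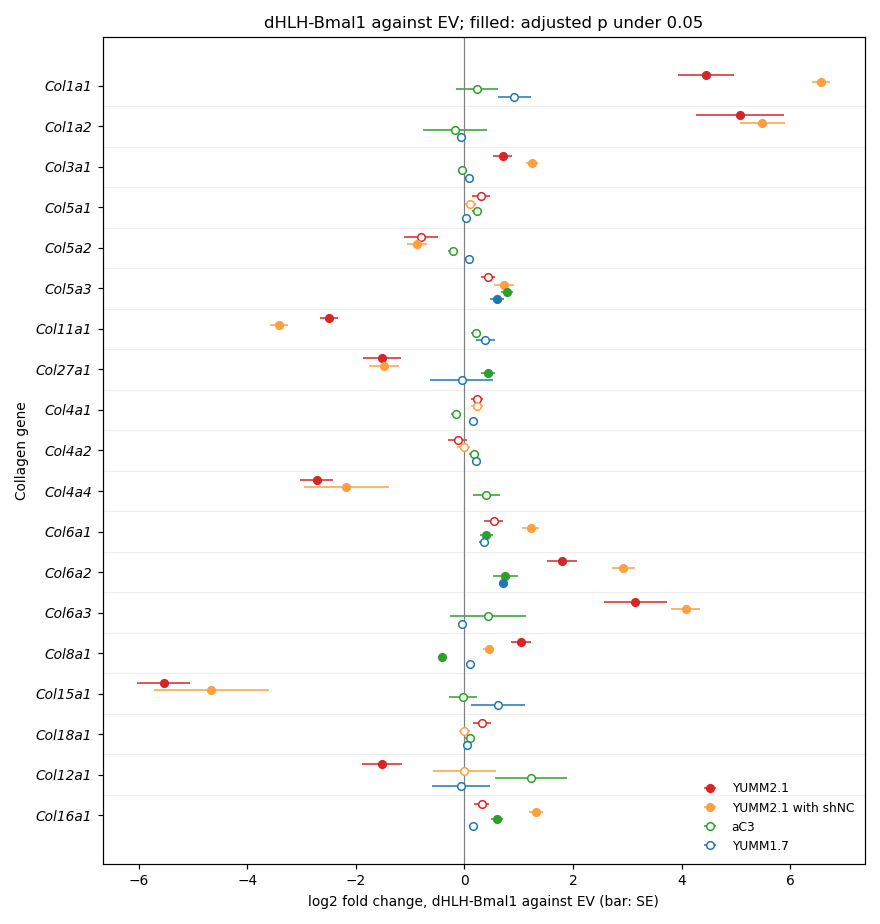
Log2 fold change of dHLH-Bmal1 against EV with its standard error for 19 collagen genes in YUMM2.1, YUMM2.1 with shNC, aC3 and YUMM1.7 (2 libraries per group), filled where the adjusted p is under 0.05. Col1a1, Col1a2 and Col6a3 are far to the right and Col11a1 and Col15a1 far to the left in both YUMM2.1 sets, and most aC3 and YUMM1.7 points lie near 0.

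In B16-F10, Col4a1 was higher in the Bmal1 knockout clone than in the control clone. It was at 1.151 and 0.8721 CPM in control cells (24 and 18 counts) and 11.27 and 12.59 in knockout cells (274 and 264 counts), 3.55 ± 0.31 log2 (adjusted p = 0.033). It was the 1 gene called of 18 tested, where 0.44% of all genes passed (0.22% higher and 0.22% lower). Its head-to-head neighbour Col4a2 was at 2.637 and 2.18 CPM and 8.146 and 7.966 CPM (1.74 log2, adjusted p = 0.121), with no overlap between groups but no call. DESeq2, the fit without a filter, the replicate block and the fits without either knockout library did call it. The median over the 18 genes was -0.83, and 8 had an unadjusted p under 0.05. Without control replicate 2 no gene was called, without knockout replicate 1 7 were and without knockout replicate 2 8 were, and DESeq2 called 5. Most calls in these 3 fits were lower in knockout cells (5 of 7, 6 of 8 and 3 of 5). Counts of Arntl were 15.3 and 10.7 CPM in control and 13.4 and 11.4 in knockout cells (adjusted p = 0.923). But 3′ counts do not test an edit inside the gene, so this checks nothing about the knockout.

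Hairpins against Myh9 lowered their target. With EV, Myh9 was at 697 and 665 CPM with shNC, 231 and 246 with shMyh9#2 (-1.52 ± 0.10, adjusted p = 4.9e-08) and 487 and 475 with shMyh9#4 (-0.52). It fell by 2.04 and 0.93 log2 with WT-Bmal1 and by 1.69 and 0.42 with dHLH-Bmal1 for the 2 hairpins in that order. shMyh9#4 thus left more Myh9 than shMyh9#2 in every background. With shNC, Myh9 was itself higher with WT-Bmal1 (0.51 ± 0.09, adjusted p = 0.00075) and dHLH-Bmal1 (0.39 ± 0.09, adjusted p = 0.0046) than with EV. With dHLH-Bmal1 and shMyh9#4 it was at 681 and 645 CPM, close to EV with shNC.

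In the EV background, Myh9 knockdown went with higher Col1a1, Col6a3 and Col6a2 and lower Col11a1. With shMyh9#2, 4 of 24 genes were higher and 3 lower, where 6.65% of all genes passed (4.2% higher and 2.46% lower). Col1a1 was at 1.835 and 2.129 CPM with shNC, 18.11 and 24.09 with shMyh9#2 and 5.935 and 6.149 with shMyh9#4. The 3 pairs did not overlap (3.40 ± 0.19, adjusted p = 7.1e-09, and 1.58 ± 0.22, adjusted p = 0.00043). Col6a3 was at 2.691 and 3.81 CPM, 14.65 and 16.8 CPM and 9.496 and 13.92 CPM in that order (2.26 ± 0.28 and 1.82 ± 0.28). Col6a2 rose with both (1.16 ± 0.22 and 0.92), and Col8a1 rose with shMyh9#2 (0.41). Col11a1 fell from 121.8 and 116.1 CPM to 50.74 and 49.17 and to 63.74 and 51.68 (-1.25 ± 0.15 and -1.06 ± 0.15). Col27a1 (25.2 and 17.14 CPM to 6.259 and 7.66) and Col5a2 (276.2 and 238.6 CPM to 121.2 and 147.1) fell with shMyh9#2. Col1a2 was not called with shMyh9#2 (1.65 ± 0.49, adjusted p = 0.0531). With shMyh9#4, 3 genes were higher and 1 lower of 24, where 1.71% of all genes passed (1.45% higher and 0.256% lower). Both hairpins are compared with the same shNC libraries. Without shMyh9#2 replicate 1, 4 of its 7 calls were left (Col1a1, Col6a3, Col11a1 and Col27a1). Sox10 was at 327 and 334 CPM with shNC, 194 and 179 with shMyh9#2 and 222 and 273 with shMyh9#4. Mitf, another melanocytic marker, was at 16.1 and 14.6, 25.6 and 22, and 24.7 and 15.5 CPM in that order. The endothelial markers summed to 7.96 to 10 CPM with shNC, 16.6 to 18.6 with shMyh9#2 and 13.5 to 17.9 with shMyh9#4. Of these, Cdh5 was at 3.55 and 2.13, 9.06 and 11.1, and 12 and 9.71 CPM in that order. Pecam1 was at 6.36 and 5.83, 9.59 and 5.44, and 5.94 and 3.78 CPM, and Kdr at 0 under both Myh9 hairpins. The part of these markers in the collagen differences was not tested.

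In the WT-Bmal1 background, shMyh9#2 went with further rises of Col1a1, Col1a2 and Col6a3. Of 24 genes, 3 were higher and 2 lower, where 4.76% of all genes passed (2.35% higher and 2.41% lower). Col1a1 went from 48.94 and 49.18 CPM to 110.7 and 118 (1.22 ± 0.12, adjusted p = 4.8e-06), Col1a2 from 17.45 and 11.22 to 53.04 and 39.85 (1.701 ± 0.327) and Col6a3 from 12 and 14.68 to 36.51 and 28.61 (1.28 ± 0.22). Col11a1 fell (-0.92 ± 0.15), as did Col7a1, the anchoring fibril collagen (-1.51 ± 0.42, adjusted p = 0.0499). Without shMyh9#2 replicate 1, Col1a1 and Col11a1 were left, and without shNC replicate 2 these and Col6a3. Sox10 was at 99 and 100 CPM with shNC and 34.9 and 37 with shMyh9#2. Mitf was at 21.4 and 18.5 CPM and 21.3 and 21.2 CPM in that order, and the part of either was not tested. With shMyh9#4, 0 of 24 passed, where 0.236% of all genes did (0.0876% higher and 0.148% lower), 8 had an unadjusted p under 0.05, and DESeq2 called 3 (Col1a1, Col3a1 and Col4a2).

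In the dHLH-Bmal1 background the 2 hairpins differed. With shMyh9#2, 0 of 24 genes passed, where 0.559% of all genes did (0.296% higher and 0.263% lower), 4 had an unadjusted p under 0.05, and DESeq2 called 0. Col1a1 was at 198.4 and 180.6 CPM with shNC and 241.4 and 257.7 with shMyh9#2. With shMyh9#4, 3 were higher and 2 lower, where 15.1% of all genes passed (6.28% higher and 8.86% lower). Col11a1 rose from 11.51 and 10.55 CPM to 25.48 and 32.62 (1.41 ± 0.17, adjusted p = 0.00027), Col6a1 from 41.4 and 42.67 to 54.64 and 62.95 (0.50 ± 0.15) and Col8a1 from 297.6 and 285.9 to 359.8 and 426.9 (0.44 ± 0.10). Col1a2 fell from 108.9 and 100.9 CPM to 32.55 and 37.38 (-1.57 ± 0.32, adjusted p = 0.004), and Col3a1 fell from 397.2 and 400.3 to 332.6 and 295.2 (-0.34 ± 0.11). Without shMyh9#4 replicate 2, 1 call was left (Col11a1), and without either shNC library 2 were (Col11a1 and Col1a2). Sox10 was at 22.7 and 26.1 CPM with shNC and 46.1 and 45.1 with shMyh9#4. Mitf was at 18.2 and 18 CPM and 26.9 and 24.3 CPM in that order, and the part of either was not tested. The hairpin that lowered Myh9 less had more calls in this background, among collagen genes as among all genes (15.1% against 0.559%). In the EV and WT-Bmal1 backgrounds the order was the reverse, again among both, and this difference was not tested.

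**Figure D5:**
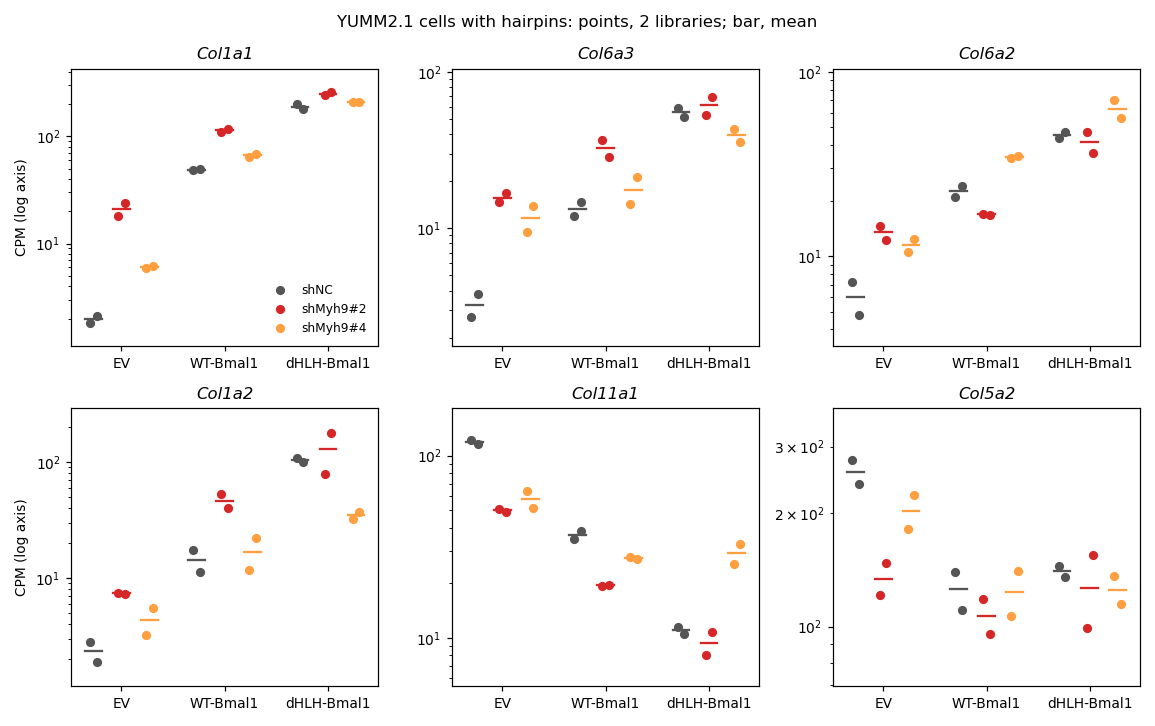
CPM (log axis) of Col1a1, Col6a3, Col6a2, Col1a2, Col11a1 and Col5a2 in the 3 YUMM2.1 construct lines under shNC, shMyh9#2 and shMyh9#4, 1 point per library (2 per group). With EV, Col1a1 is at 1.835 and 2.129 under shNC and 18.11 and 24.09 under shMyh9#2, and with dHLH-Bmal1 it lies near 200 or above under shNC and shMyh9#2.

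The effect of shMyh9#2 differed between backgrounds for a few chains. Between dHLH-Bmal1 and EV the interaction passed for 4 of 24 genes, where 3.29% of all genes passed (1.1% higher and 2.2% lower). They were Col1a1 (-3.02 ± 0.22, adjusted p = 4.4e-07), Col6a3 (-2.12 ± 0.35), Col6a2 (-1.30 ± 0.28) and Col11a1 (1.05 ± 0.23). Without shMyh9#2 EV replicate 1, or either dHLH-Bmal1 shNC library, Col1a1 and Col6a3 were left. Between WT-Bmal1 and EV it passed for Col1a1 (-2.19 ± 0.23, adjusted p = 1.1e-05) and Col6a2 (-1.58 ± 0.29), 2 of 24, where 5.18% passed (1.75% higher and 3.43% lower). In both tests the effect on Col1a1 was smaller where Col1a1 was already high with shNC.

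A list of 33 genes that fold, trim, cross-link or bind collagen was read beside the chains. In YUMM2.1 dHLH-Bmal1 against EV, 7 of 27 tested were higher and 3 lower, where 13.2% of all genes passed. By role, 4 of 9 cross-linking and hydroxylation genes were higher and none lower, 1 of 9 folding genes and 1 of 4 trimming genes were higher, and of 5 receptors 1 was higher and 3 lower. Loxl2, a lysyl oxidase, went from 5.76 and 8.11 CPM to 87 and 58.3 (3.42 ± 0.27, adjusted p = 0.0015), and Loxl4 of the same family rose by 6.02 ± 0.93 log2. Itga1, the alpha chain of a collagen-binding integrin, went from 131 and 119 CPM to 28.3 and 29.2 (-2.10 ± 0.13, adjusted p = 0.00084). In the shNC cells the same contrast gave 9 higher and 7 lower of 29 (26.4% of all genes), with Itga1 at -3.11 ± 0.22, Loxl4 at 2.505 ± 0.801 and Loxl2 at 2.14 ± 0.33. WT-Bmal1 against EV in the shNC cells gave 8 higher and 5 lower of 29 (22.3% of all genes).

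With EV, shMyh9#2 gave 4 higher and 2 lower of 29 (6.65% of all genes), with Ddr2, a discoidin domain receptor, at 1.29 ± 0.11 (adjusted p = 1.4e-06), and with dHLH-Bmal1 shMyh9#4 gave 5 higher and 6 lower of 29 (15.1% of all genes). In aC3, WT-Bmal1 gave 3 higher and 0 lower of 26 (11.2% of all genes) and dHLH-Bmal1 2 higher and 1 lower (10.9%). YUMM2.1 WT-Bmal1 against EV gave 0 of 27 (0% of all genes), YUMM1.7 dHLH-Bmal1 against EV 0 of 29 (0.63%) and B16-F10 knockout against control 0 of 24 (0.44%). YUMM1.7 EV against YUMM2.1 EV gave 14 higher and 6 lower of 30 (37.1% of all genes). Loxl1, another lysyl oxidase, was at 185 and 170 CPM in YUMM1.7 EV and 0.334 and 0.324 in YUMM2.1 EV, and Mrc2, an endocytic collagen receptor, at 24 and 24.4 against 0 and 0.108. B16-F10 control against YUMM2.1 EV gave 4 higher and 15 lower of 30 (54.3% of all genes).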

How the data were processed

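RNA of 40 cultures of mouse melanoma cells was sequenced by the authors as 3′ libraries (QuantSeq FWD, 100 ng DNase-treated RNA, single reads of 75 bases). The deposited table holds whole-number counts per Ensembl gene, which the authors made with bowtie2 alignment to mm10 and RSEM. The Ensembl release and strand setting are not given in the sources used here. Each column was matched to its sample by name, and 99.63% of identifiers matched a symbol. The collagen genes and every list were chosen with earlier results of these data known.

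Counts were tested as deposited with edgeR 4.0.16 in R 4.3.3 (TMM factors, filterByExpr, quasi-likelihood test, Benjamini-Hochberg over all genes tested), in 1 fit for each cell set. CPM used library totals scaled by TMM factors over all 40 libraries. Fold changes of genes at 0 in a group are bounds at 3 counts per library. Scripts were tested on simulated data. Same-numbered YUMM2.1 libraries without hairpins deviated together (r 0.18 to 0.391 over 3 group pairs) and were also fitted with the replicate number as a block. This uses the deposited labels. If the doubted labels were exchanged, replicate number and construct could not be told apart in the EV and WT-Bmal1 libraries. In the other sets numbers did not pair. Replicates differed by more than counting noise. Genes named are those past the threshold, the most abundant, and a fixed list of main chains, with at most 6 per comparison given by library, and at most 3 of the processing genes. Promoters came from RefSeq on GRCm38.p6, the build of mm10. Alternatives were DESeq2 1.42.0, its size factors in edgeR, no filter, the replicate block, exchanged labels, both doubted libraries left out, and each library left out. Totals of 3643332 to 22970049 counts make a CPM of 1 equal to few reads, so low genes are imprecise. 1 further allele of the YUMM lines is not reported here.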

Additional observations from a re-analysis of the deposited data

Results flagged for a closer look

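The results below are singled out because the effect of 1 treatment differed between cell backgrounds by an interaction test (edgeR's quasi-likelihood test, Benjamini-Hochberg adjusted).

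For dHLH-Bmal1 against EV, 10 collagen genes differed between aC3 and YUMM2.1. The fitted differences of the log2 fold changes, aC3 minus YUMM2.1, were 7.01 for Col20a1, 5.48 for Col15a1 and -5.29 for Col1a2. Col20a1 had no counts in YUMM2.1 with dHLH-Bmal1, so its fitted value is no bound. Between YUMM1.7 and YUMM2.1, 8 genes differed, with 6.45 for Col4a4, 6.17 for Col15a1 and -5.15 for Col1a2. Col4a4 had 0 counts in both YUMM1.7 EV libraries and 1 and 2 with dHLH-Bmal1. It passed the filter on low counts through YUMM2.1 alone, so its value rests on the fall in YUMM2.1 and shows no effect in YUMM1.7. Col1a2 was already at 2099 and 2139 CPM in YUMM1.7 EV.

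For shMyh9#2 against shNC, 4 genes differed between the dHLH-Bmal1 and EV backgrounds, with -3.02 for Col1a1, -2.12 for Col6a3 and -1.30 for Col6a2. Between WT-Bmal1 and EV, 2 genes differed, with -2.19 for Col1a1 and -1.58 for Col6a2.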

How the results depend on the processing

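Of 232 recomputed counts of called collagen genes, 183 stayed within 1.5 times. For genes called in the main fit, none of 1646 recomputed values reversed and 1438 stayed called. Genes called only in an alternative are not among these values. No alternative moved the median of all genes by more than 0.0836 log2. With 2 libraries per group, leaving 1 out leaves a lone library assumed to vary like the others.

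DESeq2 gave 5 calls instead of 1 for B16-F10 knockout, 3 instead of 6 for aC3 dHLH-Bmal1 against EV, 1 instead of 0 for YUMM1.7 WT-Bmal1 and 3 instead of 0 for WT-Bmal1 shMyh9#4. Without a filter on low counts B16-F10 gave 5, and the shMyh9#2 interactions gave 7 instead of 4 (dHLH-Bmal1) and 4 instead of 2 (WT-Bmal1). With the replicate block B16-F10 gave 3, YUMM1.7 dHLH-Bmal1 1 instead of 2 and aC3 EV against YUMM2.1 EV 4 instead of 7. In the YUMM2.1 libraries without hairpins the block, by the deposited labels, gave 16 instead of 11 for dHLH-Bmal1 and changed no call to uncalled. With the doubted labels exchanged, YUMM2.1 WT-Bmal1 gave 1 instead of 0, dHLH-Bmal1 19 instead of 11, aC3 EV against YUMM2.1 EV 11 instead of 7 and the YUMM1.7 interaction 13 instead of 8. Which cause lies behind these was not tested.

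Leaving out each library in turn gave 0 to 8 calls for B16-F10 knockout. In aC3 it gave 1 to 2 for WT-Bmal1, 1 to 7 for dHLH-Bmal1 and 1 to 3 between the constructs. In YUMM2.1 it gave 0 to 0 for WT-Bmal1, 6 to 10 for dHLH-Bmal1 and 5 to 9 between the constructs, and in YUMM1.7 0 to 0 and 1 to 2. With shNC it gave 9 to 10, 12 to 13 and 4 to 6 in that order. For shMyh9#2 and shMyh9#4 it gave 4 to 6 and 3 to 4 with EV, 2 to 4 and 0 to 0 with WT-Bmal1, and 0 to 0 and 1 to 5 with dHLH-Bmal1. Between lines it gave 21 to 26 for YUMM1.7, 24 to 24 for B16-F10 and 0 to 9 for aC3. For the interactions it gave 6 to 10 (aC3), 4 to 9 (YUMM1.7), 2 to 5 (dHLH-Bmal1 with shMyh9#2) and 2 to 2 (WT-Bmal1 with shMyh9#2).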
